A study of Monascus purpureus with 6 samples.

Results

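For Monascus purpureus MP2022, the translation initiation and elongation factors were represented by 106 unigenes, which are transcripts assembled de novo from RNA-Seq reads. They were every unigene whose KEGG name held "translation initiation factor" or "elongation factor", transcription elongation factors left out, with a mean over the 6 libraries of at least 0.1 FPKM. FPKM counts fragments per kilobase of transcript, scaled to the mapped fragments of the library, so it is a level already divided by length. The table listed 24261 unigenes, of which 20381 reached this mean and were tested. A total of 117 carried the words of the rule, of which 10 had no FPKM listed and 1, TRINITY_DN88_c0_g1_i10-C1A, fell short with a mean of 0.035 FPKM. The lowest unigene inside the limit was TRINITY_DN292_c0_g1_i1-C3A, with a mean of 0.148 FPKM. The 106 unigenes came from 82 assembled genes and 46 KEGG entries.

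RNA was taken from wild-type MP2022, 1 soil isolate of a filamentous fungus that makes azaphilone pigments and ethanol, grown in fermentation medium and sampled at 1 d. The 3 taurine libraries came from cultures with 4.0 g/L taurine, an amino sulfonic acid, and the 3 control libraries from cultures without it. The labels number the libraries 1 to 3 in each group and do not say whether they were separate flasks, so a p-value measures the spread between these samples only. Every direction below holds as far as the column names of the deposited table give the groups. Total FPKM was between 831359 and 865009 in 5 libraries and 797244 in control replicate 2, and read depth was not given as counts.

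Translation begins when initiation factors bring the initiator tRNA, the small ribosomal subunit and the capped mRNA together and find the start codon. The GTPase eIF2 carries the initiator tRNA, eIF2B recharges it with GTP, eIF3 is the large scaffold on the small subunit, and the cap complex of eIF4E, eIF4G and the helicase eIF4A prepares the mRNA. In elongation, eEF1A delivers aminoacyl-tRNA, eEF1B recharges eEF1A, eEF2 moves the ribosome along, and fungi also need the ATPase eEF3. Growing cells keep these mRNAs among their most abundant.

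Taurine was not found to change any of these factors. With limma on log2(FPKM + 1) over all 20381 unigenes, 0 of the 106 had a Benjamini-Hochberg adjusted p of at most 0.05, against 0.0393% of all unigenes tested, and the lowest adjusted p among them was 0.999. At an unadjusted p under 0.05 there were 2 higher with taurine (1.63% of all unigenes tested) and 0 lower (1.03% of all unigenes tested). No unigene had a log2 fold change of 1 or more in size, and the median was 0.05 over the 106 unigenes and 0.02 over all tested. Of the 106, 70 were nominally higher with taurine and 36 nominally lower, against 11055 and 9326 of all tested. Without control replicate 2 the 106 split into 45 higher and 61 lower, against 11268 and 8879 of all tested. The most regular feature was a library, control replicate 2, and it was not particular to the factors. At a mean of at least 10 FPKM it was lowest for 74.5% of the factor unigenes with a fitting second name. The share was 50.4% over all unigenes at that level and 78.8% over ribosomal proteins.

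The KEGG name was not always borne out by the other annotations of the same unigene. A second name fitted in 67 of the 106 unigenes, which covered 41 factors. It was a Pfam domain listed for the factor, a name of any translation factor in the NR protein database, or an NR protein shared with such a unigene. In 21 unigenes Pfam gave a domain outside the words listed for the factor, and whether each such domain went against the name was not tested. Another 9 had neither a fitting name nor a Pfam domain, and 9 were named for a factor without being one: 6 Argonaute unigenes (filed as eIF2C), 2 kinases of eIF2 alpha and the RNA polymerase factor ELL. The 67 had a median mean level of 119 FPKM, against 7.08 FPKM for the 21 with another domain. Factor levels below are sums over the 67 unless stated. The best NR match was a Monascus protein for 60 of the 67. For 5 it was an Aspergillus protein, and these included the most abundant eIF4E unigene and the most abundant HBS1-like unigene.

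**Figure D1:**
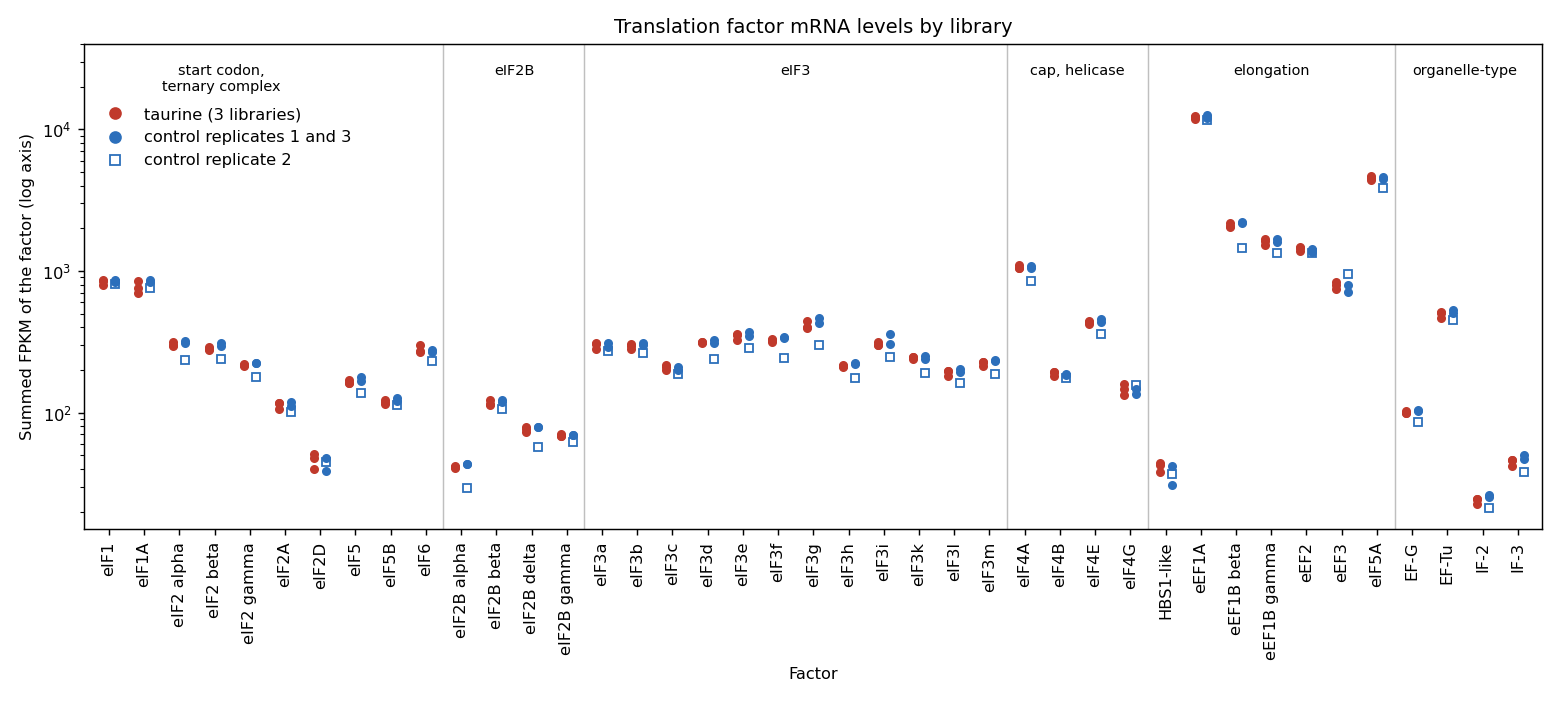
Summed FPKM (log axis) of 41 translation factors by role. Red points are the 3 taurine libraries, filled blue points control replicates 1 and 3, and open squares control replicate 2. Red and filled blue points nearly coincide for most factors, while the open square is the lowest point in 35 of 41 factors.

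Start codon factors came first in the pathway. eIF1 and eIF1A, small proteins that hold the small subunit open for scanning, were the most abundant initiation mRNAs after the helicase eIF4A. eIF1 (TRINITY_DN401_c1_g2_i1-S2A) had 853, 869 and 790 FPKM in taurine libraries, against 835, 813 and 864 FPKM in control libraries. The groups overlapped, and both averaged 837 FPKM. eIF1A (TRINITY_DN9448_c0_g1_i1-C1A) had 842, 699 and 761 FPKM with taurine, against 838, 756 and 859 FPKM in control, a log2 fold change of -0.09 ± 0.11 (SE). Its lowest library was taurine replicate 2 and that of eIF1 was taurine replicate 3.

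The 3 subunits of eIF2 were close to each other in level. The alpha subunit, whose phosphorylation slows initiation, came from 2 isoforms of 1 assembled gene that summed to 298, 317 and 297 FPKM with taurine, against 312, 235 and 318 FPKM in control. The beta subunit (TRINITY_DN110_c0_g1_i1-S3A) averaged 282 ± 6.58 FPKM with taurine and 280 ± 36.2 FPKM in control (SD, n = 3 each). The GTP-binding gamma subunit (TRINITY_DN545_c0_g1_i1-S2A) averaged 216 ± 4.03 FPKM with taurine and 209 ± 26.0 FPKM in control (SD, n = 3 each). All 3 subunits were lowest in control replicate 2, which also made the control SD several times that of taurine.

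The factors that act around subunit joining were also level. eIF5 (TRINITY_DN132_c0_g1_i2-C3A), the GTPase activator of eIF2, had 169, 162 and 162 FPKM with taurine, against 179, 137 and 167 FPKM in control. eIF5B, the GTPase that joins the subunits, had 115, 118 and 122 FPKM in TRINITY_DN390_c0_g1_i5-C2A with taurine, against 120, 113 and 127 FPKM in control. Its taurine values lay inside the control range. eIF6 (TRINITY_DN3335_c0_g1_i1-C2A), which keeps free large subunits apart from small ones, averaged 279 ± 18.4 FPKM with taurine and 259 ± 24.8 FPKM in control (SD, n = 3 each), a log2 fold change of 0.11 ± 0.10 (SE). The alternative initiator tRNA factors eIF2A (TRINITY_DN1043_c0_g1_i1-S3A) and eIF2D (TRINITY_DN3449_c0_g1_i1-C1A) averaged 114 and 46.2 FPKM with taurine, against 110 and 43.5 FPKM in control, and eIF2D was the only one of the 10 start codon and ternary complex factors that was lowest in control replicate 1.

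eIF2B, the exchange factor of eIF2, was less abundant per length than its substrate. Its beta subunit (TRINITY_DN3165_c0_g1_i1-C3A) averaged 117 ± 5.25 FPKM with taurine and 115 ± 8.15 FPKM in control, and its alpha subunit, summed over 2 isoforms, 41.2 ± 0.880 FPKM with taurine and 38.6 ± 8.18 FPKM in control (SD, n = 3 each). The delta subunit (TRINITY_DN7522_c0_g1_i1-C1A) had 72.7, 79.1 and 76.3 FPKM with taurine, against 79.6, 56.7 and 78.6 FPKM in control. The gamma subunit (TRINITY_DN7608_c0_g1_i1-C1A) averaged 69.0 FPKM with taurine and 66.7 FPKM in control. All 4 subunits were lowest in control replicate 2, at 69.4% to 89.9% of the mean of the other 5 libraries. The ratio of eIF2 gamma to eIF2B gamma was 3.13 ± 0.107 with taurine and 3.13 ± 0.191 in control (SD, n = 3 each). The catalytic epsilon subunit was named only in 2 unigenes whose Pfam domain was an HSF-type DNA-binding domain, of 6041 and 6101 bases. The more abundant of them, TRINITY_DN786_c0_g1_i2-C2A (6041 bases), averaged 42.8 FPKM with taurine and 41.2 FPKM in control.

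The 12 subunits of eIF3 found here lay within a narrow band of levels and shared their lowest library. In the taurine group their means ran from 191 FPKM for eIF3l to 415 FPKM for eIF3g, a 2.17-fold range, and in the control group from 186 FPKM for eIF3l to 399 FPKM for eIF3g, a 2.14-fold range. eIF3l was the lowest and eIF3g the highest subunit in each of the 6 libraries. Every one of the 12 was lowest in control replicate 2, at 69.8% to 90.9% of the mean of the other 5 libraries. The RNA-binding subunit eIF3g (TRINITY_DN6970_c0_g1_i1-S3A) had 396, 444 and 404 FPKM with taurine, against 467, 299 and 432 FPKM in control. The WD-repeat subunit eIF3i (TRINITY_DN7889_c0_g1_i1-S3A) had 298, 316 and 301 FPKM with taurine, against 360, 247 and 307 FPKM in control. In both subunits control held the highest and the lowest library of the 6, and the taurine values lay between them. The large scaffold subunit eIF3a (TRINITY_DN1382_c0_g1_i1-S1A) was flatter, with 302, 280 and 311 FPKM with taurine, against 290, 272 and 310 FPKM in control.

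For each of the 12 subunits the taurine and control libraries overlapped. eIF3d (TRINITY_DN11012_c0_g1_i1-S2A), a cap-binding subunit in human cells, averaged 312 ± 2.39 FPKM with taurine and 292 ± 46.4 FPKM in control, and eIF3k (TRINITY_DN3702_c0_g1_i1-S3A) averaged 243 ± 4.91 FPKM with taurine and 227 ± 33.1 FPKM in control (SD, n = 3 each). These 2 gave the highest log2 ratios of the complex, both 0.10 on the ratio of mean summed FPKM. Without control replicate 2 the ratio was -0.03 for eIF3d and -0.02 for eIF3k. With all libraries the ratio was above 0 for 12 of 12 subunits, and without control replicate 2 for 1 of 12, eIF3c (TRINITY_DN2584_c0_g1_i1-C1A), so the sign shared by the complex rested on that library.

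Of the factors that handle the mRNA, the DEAD-box helicase eIF4A (TRINITY_DN2097_c0_g1_i1-S3A) was the most abundant, with 1054, 1099 and 1042 FPKM with taurine, against 1088, 855 and 1050 FPKM in control. The cap-binding protein eIF4E summed to 432 ± 11.1 FPKM with taurine and 418 ± 51.3 FPKM in control over 4 unigenes (SD, n = 3 each), and eIF4B (TRINITY_DN2933_c0_g1_i1-S2A), the partner of eIF4A, averaged 189 ± 7.52 FPKM with taurine and 183 ± 6.10 FPKM in control. The scaffold eIF4G (TRINITY_DN573_c0_g1_i1-C2A) had 146, 133 and 154 FPKM with taurine, against 136, 156 and 146 FPKM in control. Control replicate 2 was its highest library, just above taurine replicate 3, while its partners were lowest in control replicate 2. Summed with a short eIF4G unigene, taurine replicate 3 was the highest, at 160 FPKM, against 156 FPKM in control replicate 2. The ratio of eIF4A to eIF4G, taken on summed FPKM, was 7.20, 8.28 and 6.50 in taurine libraries, against 8.03, 5.47 and 7.20 in control libraries, with control replicate 2 the lowest. A short unigene each of eIF4E and eIF4G, TRINITY_DN7137_c0_g1_i1-S3A of 262 bases and TRINITY_DN6451_c0_g1_i1-S3A of 239 bases, was listed above 0 in taurine replicate 3 only, at 6.68 and 6.07 FPKM.

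The elongation factors were the most abundant of the whole set. eEF1A (TRINITY_DN1115_c0_g1_i1-C2A) ranked 2 by mean level among all 20381 unigenes tested, with 12079, 11526 and 12282 FPKM in taurine libraries, against 11779, 11363 and 12312 FPKM in control libraries. The groups overlapped, with a log2 fold change of 0.02 ± 0.22 (SE). eEF2 (TRINITY_DN10746_c0_g1_i1-C2A) had 1447, 1393 and 1466 FPKM with taurine, against 1359, 1334 and 1436 FPKM in control. The log2 fold change of eEF2 was 0.06 ± 0.10 (SE), and its highest control library exceeded its lowest taurine library. The ratio of eEF1A to eEF2, on summed FPKM, was 8.48 ± 0.0547 with taurine and 8.72 ± 0.0736 in control (SD, n = 3 each). The taurine ratios did not overlap with the control ratios, with an exact permutation p = 0.1 (two-sided), the smallest that 3 against 3 can give, and 0.6 after adjustment over the 6 ratios computed.

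eEF1B, which recharges eEF1A with GTP, showed the deepest dip of control replicate 2. Its catalytic subunit, named beta here (TRINITY_DN408_c0_g1_i4-C1A), had 2016, 2139 and 2015 FPKM with taurine, against 2154, 1418 and 2137 FPKM in control. The sum over its 2 isoforms in control replicate 2 was 68.1% of the mean of the other 5 libraries. The gamma subunit (TRINITY_DN2116_c0_g2_i1-S2A) had 1621, 1529 and 1678 FPKM with taurine, against 1598, 1345 and 1670 FPKM in control. For both subunits control replicates 1 and 3 lay within or just above the taurine range.

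eIF5A and eEF3 held exceptions to that pattern. eIF5A is the hypusine-bearing factor that helps ribosomes past stalling peptides, and 2 assembled genes carried its KEGG name. NR named the main one as this factor and the second only as a hypothetical protein, which fitted through its Pfam domain alone. The main unigene (TRINITY_DN3323_c0_g2_i1-C3A, 938 bases) had 3553, 3728 and 3396 FPKM with taurine, against 3724, 2753 and 3583 FPKM in control. The second (TRINITY_DN2552_c0_g2_i1-S1A, 2049 bases) had 973, 917 and 1009 FPKM with taurine, against 901, 1124 and 896 FPKM in control. Control replicate 2 was thus the lowest library for the first gene named eIF5A and the highest for the second. eEF3 (TRINITY_DN3_c0_g1_i1-C2A), the fungal ATPase that releases spent tRNA, had 699, 658 and 747 FPKM with taurine, against 628, 867 and 713 FPKM in control. NR named this unigene EF-1 alpha, a different factor, while its Pfam domain was the ABC transporter domain listed for eEF3. A second unigene named eEF3 by KEGG (TRINITY_DN50_c0_g1_i1-S3A), a hypothetical protein in NR with the same domain, was flat. It averaged 87.6 ± 3.98 FPKM with taurine and 85.9 ± 1.77 FPKM in control (SD, n = 3 each).

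The 2 unigenes with an unadjusted p under 0.05 were minor eEF1A unigenes. TRINITY_DN210_c0_g1_i4-S1A had 11.5, 12.5 and 11.5 FPKM with taurine, against 6.73, 6.81 and 11.2 FPKM in control, a log2 fold change of 0.51 ± 0.20 (SE). TRINITY_DN299_c0_g1_i3-C1A, only 292 bases long, had 34.9, 19.5 and 21.4 FPKM with taurine, against 16.3, 18.1 and 13.2 FPKM in control, a log2 fold change of 0.60 ± 0.24 (SE). Neither unigene had overlapping groups, and limma gave both an adjusted p of 0.999. Summed with its isoform, the DN210 gene had 27.6, 17.9 and 26.6 FPKM with taurine, against 16.6, 10.7 and 18.6 FPKM in control, and the groups then overlapped, with a log2 fold change of 0.63 ± 0.25 (SE), an adjusted p of 0.999 in limma and an unadjusted value still under 0.05. With sample quality weights the log2 fold change of TRINITY_DN210_c0_g1_i4-S1A was 0.17, and with 1 library left out it ran from 0.40 (without control replicate 1) to 0.72 (without control replicate 3). That of TRINITY_DN299_c0_g1_i3-C1A was 0.36 without taurine replicate 1. The 6 eEF1A unigenes can share reads, the main one held 98.4% of their summed FPKM, and so the split between the minor ones is uncertain.

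Across the 106 unigenes, 3 had all taurine libraries above all control libraries, or 2.83%, against 3.78% of all unigenes tested. The third was an HBS1-like unigene (TRINITY_DN212_c0_g1_i7-S3A), related to the factor that rescues stalled ribosomes, with 1.26, 1.87 and 2.26 FPKM with taurine, against 1.13, 1.19 and 1.23 FPKM in control. Another 2 had all taurine libraries below all control libraries, or 1.89%, against 2.62% of all unigenes tested. Both were listed at 0 in all taurine libraries, a direction that rests on the column names alone. The HBS1-like TRINITY_DN292_c0_g1_i1-C3A had 0.32, 0.16 and 0.41 FPKM in control libraries, and TRINITY_DN53_c0_g1_i1-S3A, with an amino acid permease domain, had 0.45, 0.32 and 1.31 FPKM in control libraries. The 9 HBS1-like unigenes summed to 44.0, 38.3 and 42.9 FPKM with taurine, against 30.8, 36.7 and 41.6 FPKM in control. That sum gave the highest log2 ratio of the 41 factors, 0.20. Its groups overlapped, since control replicate 3 exceeded taurine replicate 2, and with 1 library left out the ratio ran from 0.09 (without control replicate 1) to 0.30 (without control replicate 3).

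**Figure D2:**
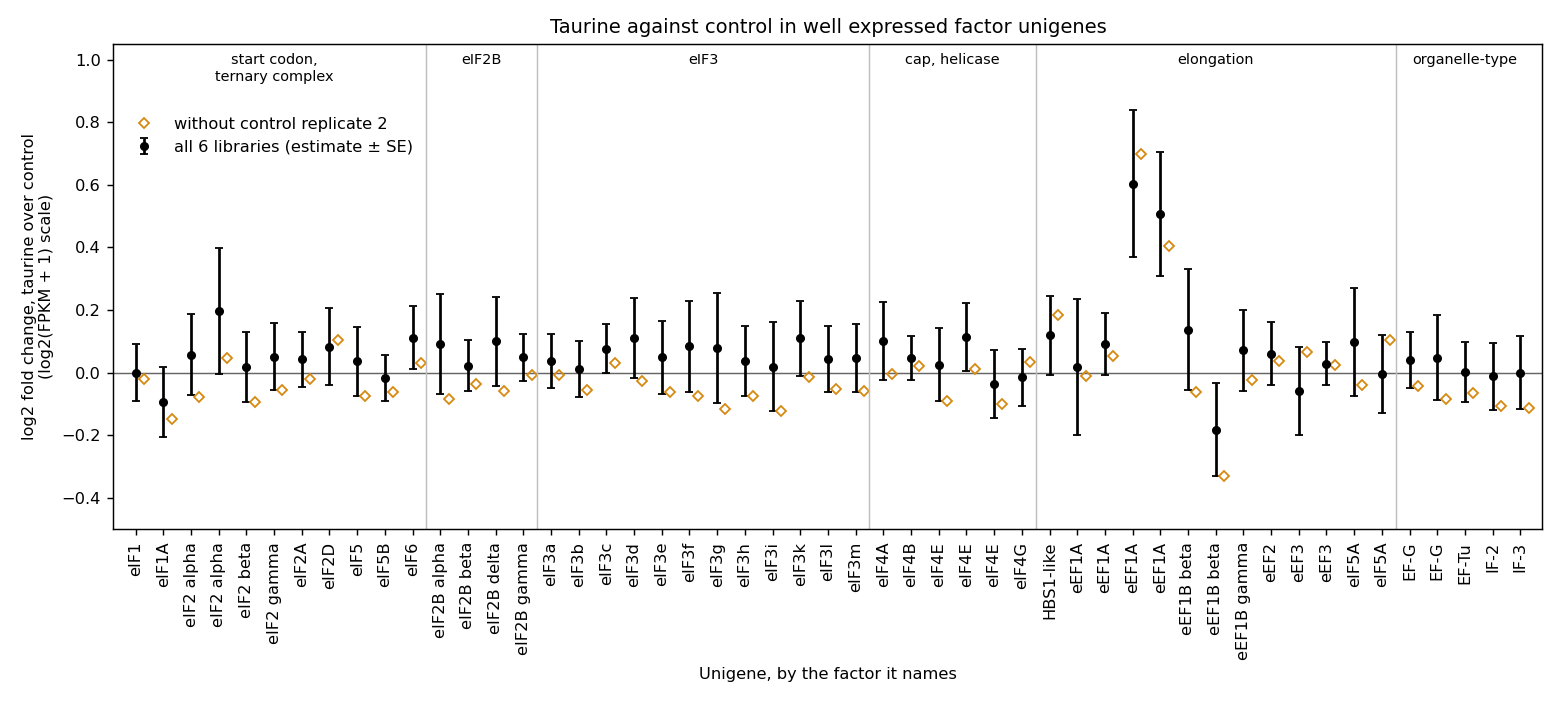
Log2 fold change of taurine over control on the log2(FPKM + 1) scale for the 51 factor unigenes with fitting annotation and a mean of at least 10 FPKM, by role. Black points with bars are the limma estimate ± SE from 6 libraries, and open diamonds the estimate without control replicate 2. Of the black points 42 lie above 0, and of the diamonds 15. The 2 highest black points are the minor eEF1A unigenes.

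The organelle-type factors, which serve the bacterial-type ribosomes of mitochondria, were lower in level than their cytoplasmic counterparts. EF-Tu (TRINITY_DN7717_c0_g1_i1-S1A), the counterpart of eEF1A, had 468, 513 and 501 FPKM with taurine, against 528, 449 and 505 FPKM in control. The 2 unigenes named EF-G summed to 99.9 ± 1.65 FPKM with taurine and 97.4 ± 10.4 FPKM in control (SD, n = 3 each). NR named the main one (TRINITY_DN3017_c0_g1_i1-C3A) mitochondrial elongation factor G, the counterpart of eEF2. It named the other (TRINITY_DN9779_c0_g1_i1-S2A) mitochondrial ribosome-releasing factor 2. IF-3 (TRINITY_DN8053_c0_g1_i1-S1A), which keeps the subunits apart before initiation, averaged 44.8 ± 2.48 FPKM with taurine and 45.0 ± 6.19 FPKM in control, and IF-2 (TRINITY_DN10824_c0_g1_i1-S1A), which binds the initiator tRNA, 24.0 ± 1.06 FPKM with taurine and 24.3 ± 2.78 FPKM in control. All 4 factors were lowest in control replicate 2, and without it their ratios ran from -0.11 to -0.05 on the log2 scale.

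Taken over all 41 factors, the share of the total FPKM was 3.78% ± 0.120 with taurine and 3.71% ± 0.128 in control (SD, n = 3 each). Elongation factors of the cytoplasm made up 2.68% ± 0.0979 with taurine and 2.63% ± 0.0697 in control. The 34 factors with a log2 ratio above 0 and the 7 with a ratio below 0 became 8 and 33 without control replicate 2. Over the 106 unigenes the median log2 fold change became -0.01 without that library, over all tested unigenes 0.03.

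Control replicate 2 was the lowest library for 38 of the 51 factor unigenes with fitting annotation and a mean of at least 10 FPKM, or 74.5%, and for 50.4% of all 5904 unigenes at that level. It lay below the mean of the other 5 libraries in 46 of the 51, by a median of -0.26 on the log2 scale, against -0.13 over the 5904. Ribosomal protein unigenes at that level had a median of -0.39 over 241 unigenes, and control replicate 2 was lowest for 78.8% of them. After each library was rescaled to the same total, control replicate 2 was lowest for 27 of the 51 factor unigenes, or 52.9%, and for 39.0% of the 5904. On that scale 40 of the 51 lay below the mean of the other 5, and the median was -0.16 over the 51 and -0.03 over the 5904. The wider spread in control was general. The median coefficient of variation was 4.55% among taurine libraries and 12.4% among control libraries, and 3.13% between control replicates 1 and 3 for the 51, and 6.18%, 13.6% and 5.55% for the 5904. Whether the culture, the RNA or the library set these values was not tested.

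The dip also differed with length. Of the 51 unigenes, 27 were under 2000 bases and all 27 lay below 0, with a median of -0.28 on the log2 scale, while the 24 of 2000 bases or more had a median of -0.16 and 5 above 0. These 5 were eEF3, the second gene named eIF5A, eIF4G, an HBS1-like unigene and, barely, eIF2D. Across the 51, Pearson's r with log2 length was 0.34 and Spearman's rho 0.34, and across the 5904 they were 0.17 and 0.30. This was not particular to control replicate 2: over the same 51 unigenes the deviations of the 6 libraries gave r from -0.48 (taurine replicate 1) to 0.35 (control replicate 3) and rho from -0.43 (taurine replicate 2) to 0.45 (taurine replicate 3). The points of each correlation share 1 library and its scaling, unigenes are not independent replicates, and the part of length in the dip was not tested.

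**Figure D3:**
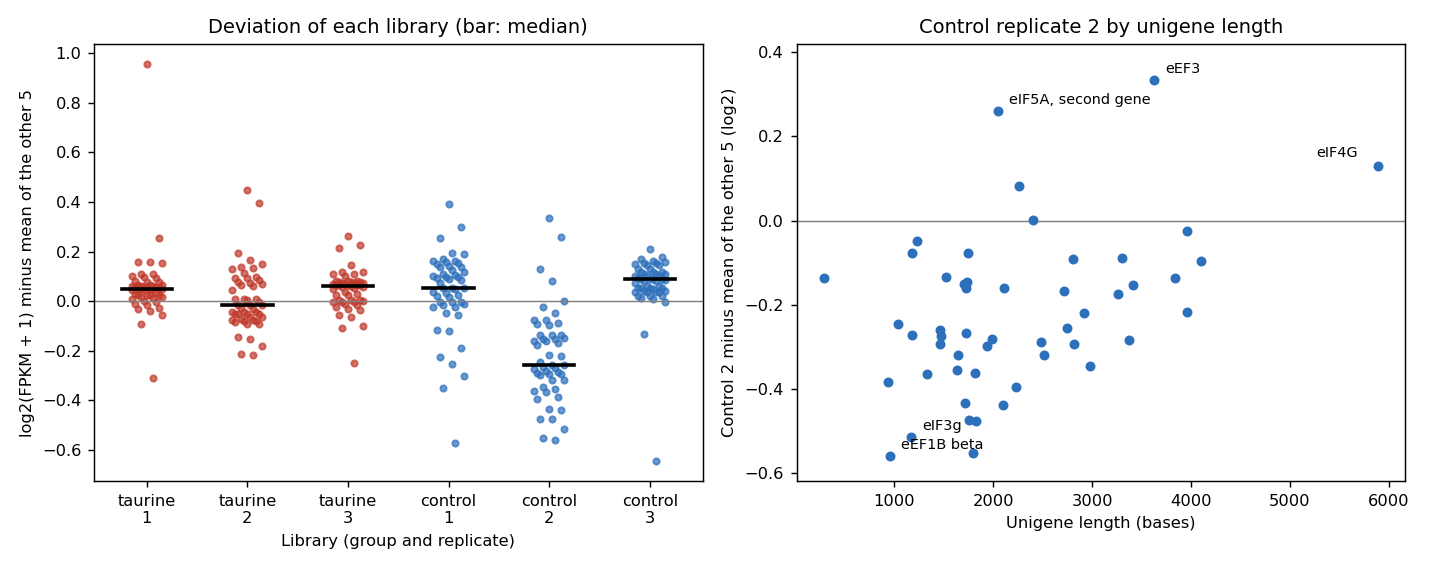
Left, log2(FPKM + 1) of each library minus the mean of the other 5 for 51 factor unigenes, taurine libraries in red and control libraries in blue, with a bar at the median; the median is -0.26 in control replicate 2 and between -0.02 and 0.09 in the others. Right, the control replicate 2 value against unigene length in bases, where eEF1B beta and eIF3g lie lowest among the named points and eEF3 highest.

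Unigenes that shared the eIF5B name without its domain were often highest in control replicate 2. KEGG named 14 unigenes eIF5B, and only TRINITY_DN390_c0_g1_i5-C2A had the GTP-binding domain. Of the other 13, 7 had an amino acid permease domain and 5 a fungal-specific transcription factor domain. These 13 came from 5 assembled genes, and the best NR match of 12 of them was 1 of 2 Monascus proteins, so they can share reads. The most abundant, TRINITY_DN2556_c0_g1_i8-C2A with a permease domain, had 92.0, 106 and 107 FPKM with taurine, against 89.2, 292 and 114 FPKM in control. Control replicate 2 stood more than 2-fold above each other library there. It was the highest library for 8 of the 13, against 28.3% of all unigenes tested, while the eIF5B unigene with the GTP-binding domain was lowest in it. The 13 summed to 156 ± 13.5 FPKM with taurine and 227 ± 140 FPKM in control (SD, n = 3 each), and 9 of them had a log2 fold change below 0, against 5 of 13 without control replicate 2.

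**Figure D4:**
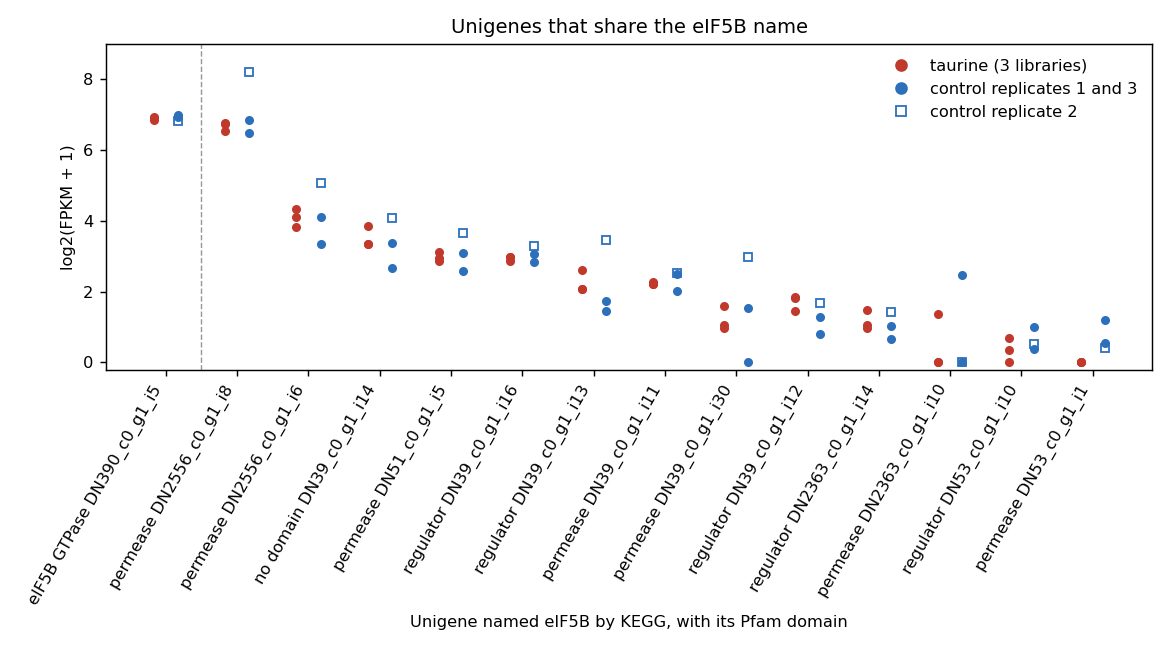
Log2(FPKM + 1) in each library of the 14 unigenes that KEGG names eIF5B, labelled with their Pfam domain; regulator stands for a fungal-specific transcription factor domain. Red points are taurine libraries, filled blue points control replicates 1 and 3, and open squares control replicate 2, which is the highest point for 8 of the 13 unigenes right of the dashed line and the lowest for the GTPase left of it.

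Other unigenes also had a Pfam domain outside the words listed for their factor. One with an aspartyl protease domain, named EF-G (TRINITY_DN6523_c0_g1_i1-S2A), had 53.3, 47.8 and 53.2 FPKM with taurine, against 49.6, 35.3 and 46.5 FPKM in control. Another with an oxidoreductase domain, named eEF1B gamma (TRINITY_DN1982_c0_g1_i1-C2A), had 45.0, 39.1 and 45.8 FPKM with taurine, against 37.7, 28.8 and 41.7 FPKM in control. In both unigenes the groups overlapped, and control replicate 2 was the lowest library. A more abundant unigene named EF-G, TRINITY_DN6627_c0_g1_i1-C3A, had the same aspartyl protease domain and the same NR protein as the first. It had 77.35, 64.47 and 73.71 FPKM with taurine, against 71.63, 67.82 and 68.41 FPKM in control, and was lowest in taurine replicate 2. A Gcn1-type unigene named eEF3 (TRINITY_DN3498_c0_g1_i1-C3A), a type of protein that activates the eIF2 alpha kinase Gcn2 in yeast, had 73.9, 69.5 and 76.9 FPKM with taurine, against 72.1, 71.6 and 77.1 FPKM in control. The kinase of that type (TRINITY_DN3266_c0_g1_i1-S2A) averaged 16.3 ± 0.953 FPKM with taurine and 15.2 ± 1.06 FPKM in control (SD, n = 3 each).

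Other genes of translation, listed by their KEGG names, gave 35 unigenes, of which limma called 0 at an adjusted p of at most 0.05; at an unadjusted p under 0.05 there was 1 higher and 1 lower with taurine. The higher one was a unigene of diphthamide synthesis, the modification of eEF2 (TRINITY_DN940_c3_g1_i1-C2A), with 10.6, 11.1 and 11.9 FPKM with taurine, against 9.42, 8.94 and 9.27 FPKM in control. The lower one was a minor unigene of the release factor eRF3, a relative of eEF1A (TRINITY_DN51_c0_g3_i2-S3A), with 0.58, 0 and 0 FPKM with taurine, against 2.87, 0.58 and 1.26 FPKM in control. Both were chosen here for their p. The main eRF3 unigene (TRINITY_DN51_c0_g4_i1-S3A) averaged 232 ± 4.02 FPKM with taurine and 215 ± 20.1 FPKM in control (SD, n = 3 each). Deoxyhypusine hydroxylase, which completes the hypusine of eIF5A, was named in 3 unigenes, 2 nominally higher and 1 nominally lower with taurine. The most abundant (TRINITY_DN3600_c0_g1_i1-C1A) had 87.3, 103 and 79.9 FPKM with taurine, against 113, 102 and 97.0 FPKM in control, a log2 fold change of -0.21 ± 0.11 (SE) with an adjusted p of 0.999 in limma.

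The low end of the set carried little information. Of the 106 unigenes, 16 were listed at 0 in at least 1 library and 13 were shorter than 600 bases. For TRINITY_DN299_c0_g1_i3-C1A, the shorter of the eEF1A unigenes above, the smallest value above 0 among 167 unigenes within 3 bases of its length was between 0.02 and 0.84 FPKM in the 6 libraries. For the short eIF4E unigene that value was between 0.23 and 3.58 FPKM in the 6 libraries, and for the short eIF4G unigene between 1.33 and 8.03 FPKM. Their own levels in taurine replicate 3 were 6.68 and 6.07 FPKM, and the smallest value of that library alone is not given here.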

How the data were processed

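Per the labels, RNA was sequenced as DNBSEQ libraries (3 with taurine, 3 control). Per the submitters' processing notes, the authors used Bowtie2 2.2.5, RSEM 1.2.8 and DESeq; the role of each is not given in the sources used here. The deposited table gives FPKM per Trinity unigene, made by the authors, with unigene length in bases (other unit) and NR, KEGG and Pfam names. Its columns of the authors' own comparisons (mean FPKM, fold changes, p and q values) were not used. Each column of FPKM belonged to 1 of the 6 libraries.

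Unigenes with a mean of at least 0.1 FPKM were tested with limma 3.58.1 (trend, R 4.3.3) on log2(FPKM + 1), taurine over control, with Benjamini-Hochberg adjustment over all tested; such fold changes understate changes of low unigenes. The fit was tested on simulated data. Since FPKM keeps no counts, depth and counting error per library are unknown. The members, role lists and list of other translation genes were chosen with earlier results of these data known. Named unigenes were, per factor, the one highest in mean FPKM (with the highest of fitting annotation beside it), every member with an adjusted p of at most 0.05, an unadjusted p under 0.05 or a log2 fold change of at least 1 in size, and those nearest the 0.1 FPKM limit; for the other unigenes given, the choice was made after their values were seen. A second name counted as fitting when Pfam words listed for the factor were present. It also counted when the NR name held words of any translation factor, not only of the same one. A unigene without a Pfam domain counted too when it shared a hypothetical NR protein with a fitting unigene. Summaries were computed with Python 3.11.15 and pandas 2.3.3. The RefSeq gene table matched 0 identifiers, so it was not used, and no sequence was analysed here.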

Additional observations from a re-analysis of the deposited data

How the results depend on the processing

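No factor unigene reached an adjusted p of at most 0.05 in limma under any setting run (other pseudocounts, other filters, TPM, quantile normalization, isoforms summed to genes, sample quality weights, each library left out, the replicate block). None passed the fold and p limits the study set for significantly DEGs when these were applied to the limma values on log2(FPKM + 1). The authors' own fold changes and p-values were not used, so this does not say which unigenes passed in the study. With an unadjusted p under 0.05 in limma as the limit the count was 2. That count was 4 with a pseudocount of 0.01 and 5 with sample quality weights, and ran from 1 to 4 with 1 library left out. The 5 unigenes with groups that did not overlap became 3 with a mean of at least 1 FPKM, 3 after quantile normalization and 2 with isoforms summed. The median log2 fold change ran from 0.02 to 0.05 under the other settings, was 0.05 over unigenes of fitting annotation alone, -0.03 with sample quality weights, and between -0.01 and 0.08 with 1 library left out, lowest without control replicate 2. The count of factors with a ratio above 0 was 31 with TPM and ran from 8 to 39 with 1 library left out, lowest without control replicate 2. Of 45 named unigenes, 37 changed sign in at least 1 setting and 33 without control replicate 2; none was called. Annotation by NR names alone fitted 43 unigenes. Settings on annotation and on the lowest library were added after seeing the data.

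Same-numbered libraries showed no shared deviation: their deviations from the group means correlated at -0.02, -0.03 and -0.01. These values cannot tell whether same-numbered cultures shared a batch. With the replicate block the unadjusted count was 2 and the median 0.05. What limits these results is 3 libraries a group, of which 1 control library stood apart, unknown depth, and de novo isoforms that share reads.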
